A study of Homo sapiens with 2 samples.

Results

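Cullin-RING ubiquitin ligases find their substrates through exchangeable adaptors, and the genes of these adaptors were compared between 2 cultures derived from PC3. This established line came from human prostate cancer and does not need androgen to grow. A control microRNA was stably overexpressed in the first culture and miR-95 in the second. Both were kept in the same serum-containing medium, total RNA was taken from each, and each was measured on 1 Affymetrix gene array. The labels do not say whether either line was a pool or a single clone, and they give no time point. Members were all genes whose platform symbol begins with KLHL, KLHDC, KBTBD, BTBD, KCTD, FBXO, FBXW, FBXL, SKP, CUL, RBX, DCAF, RCBTB, SOCS or ASB and a digit, together with KEAP1, SPOP and SPOPL. This rule found 204 genes, read by 205 probe sets, among the 13864 named genes of the table. Of the 204 members, 197 are protein-coding adaptors or core subunits and 7 are antisense RNAs or pseudogenes that share the symbol of one. The label holds for most members by family name, although several KLHDC, BTBD and KCTD proteins have no established ligase.

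In a cullin-RING ligase the cullin is a curved scaffold. Its one end holds a RING protein (RBX1 or RNF7) that recruits the charged ubiquitin-conjugating enzyme, and its other end holds an adaptor that binds the substrate. Each cullin takes its own adaptor class. CUL1 takes F-box proteins (FBXW, FBXL and FBXO) through SKP1, CUL3 takes BTB proteins, CUL4A and CUL4B take DCAF proteins through DDB1, CUL5 takes SOCS-box proteins, and CUL2 takes VHL-type proteins and several KLHDC proteins. Attachment of the ubiquitin-like protein NEDD8 switches the cullin on, and the COP9 signalosome removes it. In prostate tumours SPOP, a CUL3 adaptor, is a known site of mutation.

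The microRNA that was overexpressed is shown first, since it is the treatment by which the labels tell the cultures apart. Whether miR-95 or another difference between the cultures lay behind any value was not tested, since no group had replicates. MIR95 lies on the minus strand of human chromosome 4 (GRCh38.p14), and RefSeq lists mature forms from both arms of its hairpin, at chr4:8005312-8005333 (3p) and chr4:8005347-8005367 (5p). The labels do not say which arm the construct was meant to yield. Capitals mark the seed, bases 2 to 8, the stretch that chiefly pairs with messenger RNA.
hsa-miR-95-3p: uUCAACGGguauuuauugagca
hsa-miR-95-5p: uCAAUAAAugucuguugaauu
A message with a full seed match to the 3p arm would carry CCGUUGA, and one to the 5p arm UUUAUUG. Messages were not searched for these letters, because untranslated regions were not used here, and no probe set used here named MIR95, so its own rise was not measured.

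All values are log2 expression. Pairs of array values are printed as deposited, and every difference is miR-95 minus control after the median over genes was taken off each array (7.46 for the control and 7.495 for miR-95). A gene counted as detected when it read at or above that median on at least 1 of the arrays, which kept 129 of the 204 members and 7081 of all 13864 genes. With 1 array a group no test, error or p-value is possible, and precision is limited by the number of arrays. As a guide to measurement disagreement, 68 detected genes had several probe sets. The range of their differences within a gene had a median of 0.12 and an upper decile of 0.335. That median was rescaled to a spread of 0.126, a figure like an SD for a single probe set. That figure holds no variation between cultures. The arrays correlated at 0.9959 (Pearson, over all 23641 probe sets), and the robust SD of the difference was 0.148 over all detected genes and 0.163 over detected members. Of the markers looked up for other tissues, the prostate secretory genes KLK2 and KLK3 lay below the detection limit on both arrays, as did DCN, CD14, VWF and LUM (7.33 and 6.04), while the 4 measured epithelial genes (KRT8, KRT18, KRT19 and EPCAM) were detected on both. CD68 and KDR, listed for leukocytes and endothelium, were detected too and differed by 0.105 and 0.285. The part of other cells in the results was not tested.

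Few members passed 1.5-fold in either direction. Of the 129 detected members, 3 were at least 1.5-fold lower, RCBTB1, KLHL15 and FBXO48, and 0 were at least 1.5-fold higher. Over all detected genes 0.861% were that much lower and 0.395% that much higher, against 2.33% of members lower. With so low a share of all genes higher, 0 of 129 members lies close to it. RCBTB1 and KLHL15 were picked out because earlier results of these arrays had shown them, so their part in that share is no independent result. Without that pair FBXO48 alone passed the limit downwards, so the higher share of members rests on the pair.

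RCBTB1, a protein of RCC1-like repeats and a BTB domain that is mutated in an inherited retinal dystrophy, read 8.85 on the control array and 7.90 on the miR-95 array. The difference of -0.985 is a 1.98-fold lower level and ranked 3rd from the lowest among the 7081 detected genes. It was read by probe set 16779085 (Entrez gene 55213). Its only measured relative, RCBTB2, read 7.12 and 7.15, below the detection limit on both arrays, and differed by -0.005. RCBTB1 was thus the lowest of all members, while RCBTB2 differed by less than the spread between probe sets, with a sign that turned under other centrings. RCBTB2 has only a dim reading here.

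KLHL15, a CUL3 adaptor known for turning over a regulatory subunit of protein phosphatase 2A and the DNA-end resection factor CtIP, read 9.48 on the control array and 8.66 on the miR-95 array. It was 1.81-fold lower, with a difference of -0.855 that ranked 8th from the lowest. Its probe set was 17109820 (Entrez gene 80311). Among the other 17 detected KLHL genes the lowest difference was -0.395 (KLHL12) and the highest was 0.455 (KLHL8), and KLHL15, chosen with its low value known, lay below these. KLHL3 of the same family, below the detection limit on both arrays, differed by -0.755. Over the 18 detected KLHL genes the median difference was -0.08 and 12 were negative (66.7%, against 59.4% of all detected genes). The messages of its reported substrates PPP2R5B and RBBP8 were not named by a probe set used here.

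The 250 bases upstream of the annotated start of each of these genes are printed because the pair had the lowest differences of all detected members, and they differ in base composition (sequences from RefSeq, GRCh38.p14). Both lie on minus strands, at chrX:24027187-24027436 for KLHL15 and chr13:49585559-49585808 for RCBTB1. Capitals mark matches on either strand. The letters searched were GGGCGG for the GC box and CACGTG for the E-box. Those of the other boxes were CCAAT for the box of that name, then TATAAA for the TATA box. For ETS factors they were CCGGAAG, and no motif contains another.
KLHL15: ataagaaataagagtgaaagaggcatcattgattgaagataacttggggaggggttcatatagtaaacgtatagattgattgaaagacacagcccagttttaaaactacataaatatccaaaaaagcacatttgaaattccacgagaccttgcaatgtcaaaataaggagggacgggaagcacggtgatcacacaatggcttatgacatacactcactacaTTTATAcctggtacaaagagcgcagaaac
RCBTB1: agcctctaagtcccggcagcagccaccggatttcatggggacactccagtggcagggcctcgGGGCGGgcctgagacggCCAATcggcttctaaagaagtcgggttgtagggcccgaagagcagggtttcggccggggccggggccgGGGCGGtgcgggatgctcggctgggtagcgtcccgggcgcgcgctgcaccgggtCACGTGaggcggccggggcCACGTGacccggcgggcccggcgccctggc
The KLHL15 stretch was 38.0% G and C with 5 CpG pairs and held a single match, to the TATA letters on the opposite strand. The RCBTB1 stretch was 73.6% G and C with 29 CpG pairs and held 2 GC boxes, 2 E-boxes and 1 CCAAT. Over the 223 listed promoters of 161 members the median was 64.4% G and C with 19 CpG pairs, against 58.0% and 11 over all 35116 listed promoters. Those 35116 belong to 27305 genes, against 13864 named genes measured here, so the comparison includes genes that were not measured. A GC box was found in 53.8% of member promoters and 42.6% of all, an E-box in 6.73% and 6.34%, CCAAT in 26.5% and 32%, TATAAA in 8.52% and 10.7%, and the ETS letters in 14.3% and 8.52%. Against the listed promoters of members of all classes, KLHL15 thus lay on the AT-rich side and RCBTB1 on the GC-rich side. Promoters of their own families were not set apart. A match is a stretch of letters and not a shown binding site.

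FBXO48, a short F-box protein reported to act on the energy-sensing kinase AMPK, read 8.75 on the control array and 8.10 on the miR-95 array. It was 1.61-fold lower (difference -0.685), 24th from the lowest, by probe set 16898548 (Entrez gene 554251). Just outside the 1.5-fold limit stood KBTBD6 at 1.46-fold lower, and the nearest member on the higher side was BTBD10 at 1.41-fold higher. The 3 members past the limit lay in 3 different classes.

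**Figure D1:**
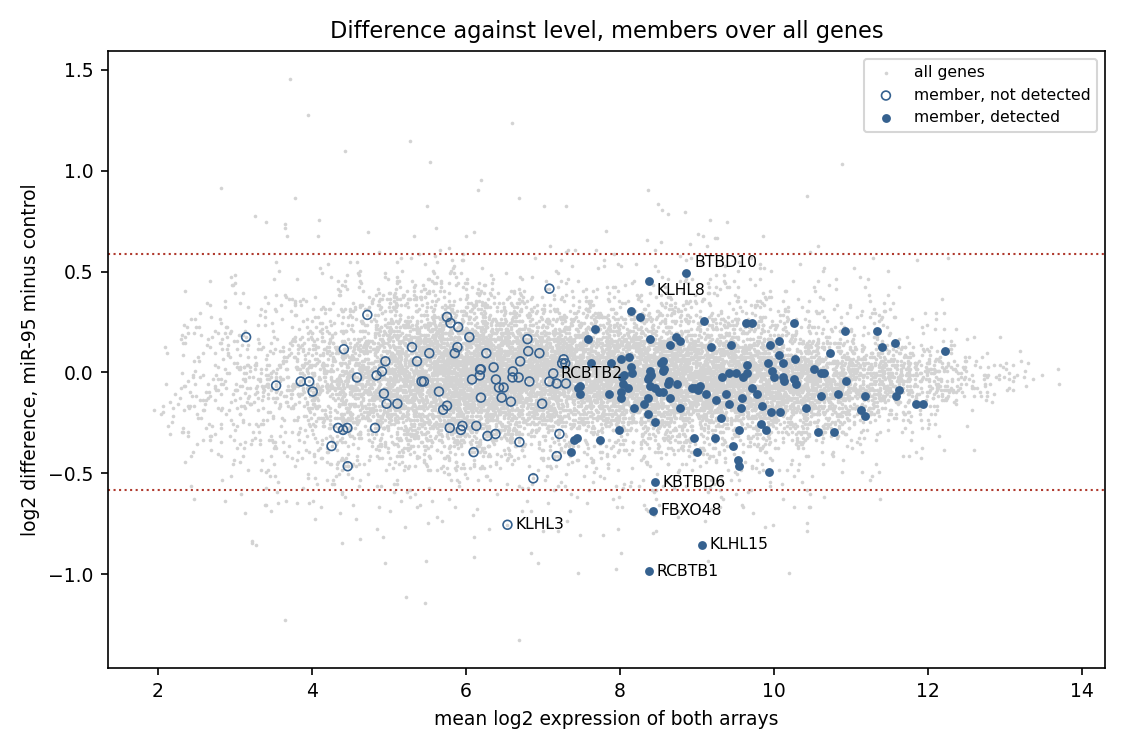
Each point is 1 gene, with the mean log2 expression of both arrays on the horizontal axis and the log2 difference (miR-95 minus control, centred) on the vertical axis; grey points are all 13864 genes, filled blue points the 129 detected members, open points the 75 members below the limit, and dotted lines mark 1.5-fold. RCBTB1, KLHL15 and FBXO48 lie below the lower line, and no detected member lies above the upper one. By brightness, RCBTB1 and FBXO48 belong to the dimmest of 3 equal groups of detected genes and KLHL15 to the middle group.

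Lesser limits of 1.3-fold and 1.2-fold were added after it was seen how few members passed 1.5-fold. At 1.3-fold 9 detected members were lower (6.98%, against 3.26% of all detected genes) and 2 were higher (1.55%, against 1.88%). At 1.2-fold 20 were lower (15.5%, against 8.45%) and 4 were higher (3.10%, against 5.48%). Both counts of lower members include RCBTB1 and KLHL15, which were chosen with their values known, and FBXO43, which reached the detection limit on the control array alone. KLHL13 and KBTBD7 entered the 1.2-fold count in that way too. With detection by the mean of both arrays, 8 of 125 members were lower at 1.3-fold (3.07% of all genes) and 17 at 1.2-fold (8.09%). BTB proteins made up 5 of the 9 members lower at 1.3-fold, namely RCBTB1, KLHL15, KBTBD6, SPOPL and KLHL12, out of 46 detected BTB members. Both members higher at that limit, KLHL8 and BTBD10, were BTB proteins as well. FBXO48, FBXO21 and FBXO43 of the F-box class and the SOCS-box gene SOCS6 completed the 9. When detected genes were split by brightness into 3 equal groups, 4 of 47 members passed 1.3-fold downwards in the dimmest, 4 of 41 in the middle and 1 of 41 in the brightest, against 4.12%, 3.34% and 2.33% of all genes there. The counts of higher members at 1.2-fold depended on the centring and rose to 8 of 129 with the values as deposited, where 7.09% of all detected genes passed.

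**Figure D2:**
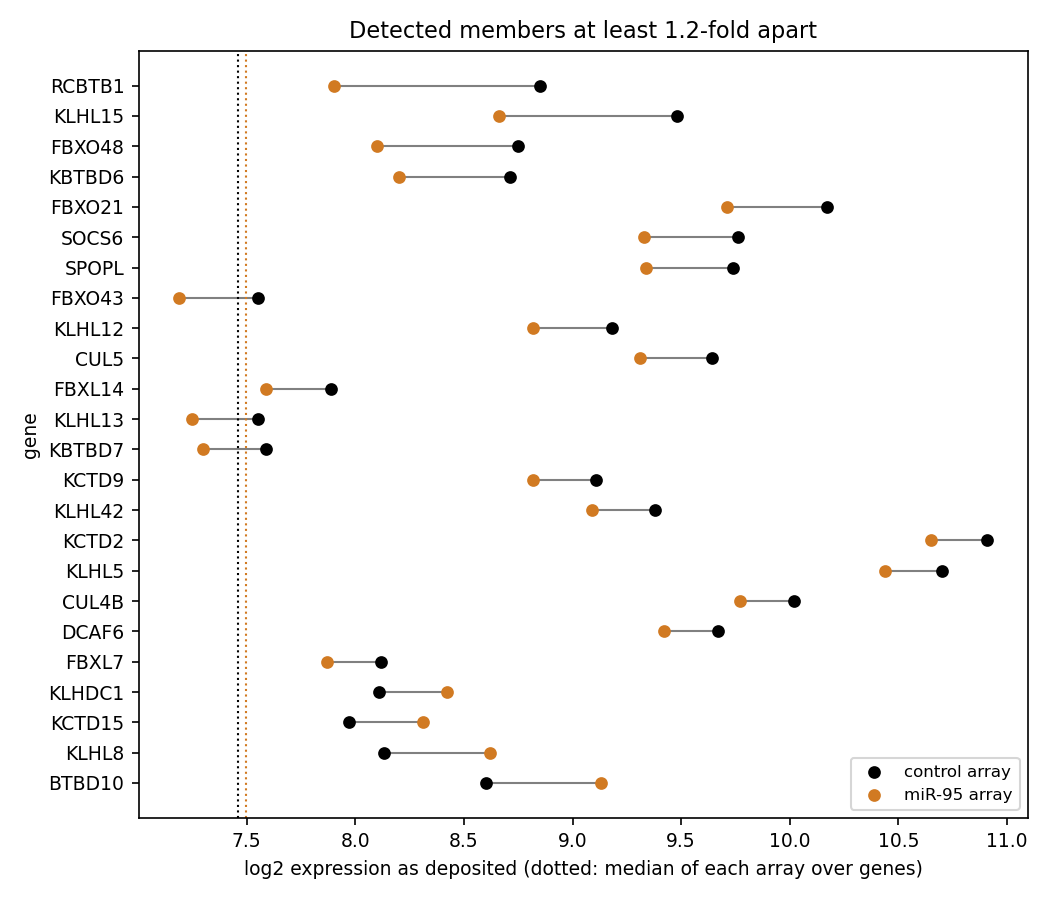
Log2 expression as deposited on the control array (black) and the miR-95 array (orange) for the 24 detected members at least 1.2-fold apart after centring, joined by a line for each gene; dotted lines are the medians of the arrays over genes. RCBTB1 and KLHL15 have the longest lines, and FBXO43, KLHL13 and KBTBD7 start just above the control median and end below the miR-95 median.

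The members' overall position differed little from that of other genes. The median difference of the 129 detected members was -0.065, against -0.035 for all detected genes, and the quartiles were -0.165 and 0.045 against -0.135 and 0.065. Negative differences were seen in 88 of 129 members (68.2%) and in 59.4% of all detected genes. These shares move with the centring: they were 55.8% and 48.0% with the values as deposited, 58.1% and 50.4% after loess, and 63.6% and 55.0% after quantile normalization. The gap between the medians of members and of all detected genes was about -0.03 in each of these. Centring moves both medians by the same or nearly the same amount, so this sameness is no check. The gap is small beside the 0.126 spread between probe sets of single genes, which is no measure of the error of a median.

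The BTB-kelch class (KLHL, KBTBD and KEAP1) pairs a BTB domain that holds CUL3 with kelch repeats that hold the substrate. Of 45 measured genes 23 were detected, with a median of -0.085 and 1 past 1.5-fold (KLHL15). The signs were 16 negative (69.6%, against 59.4% of all detected genes) and 7 positive. With the values as deposited 15 were negative (65.2%, against 48.0%). KBTBD6 read 8.71 and 8.20 (control, then miR-95) and differed by -0.545. Its partner KBTBD7, which acts with it on the RAC1 activator TIAM1, read 7.59 and 7.30 and differed by -0.325, crossing from above to below the limit. All 4 detected KBTBD genes were negative, with KBTBD4 at -0.155 and KBTBD2 at -0.055. KLHL12, which shapes COPII transport carriers through SEC31, read 9.18 and 8.82 (-0.395). KLHL13, which guides Aurora B in mitosis together with KLHL9, read 7.55 and 7.25 (-0.335), whereas KLHL9 read 9.32 and 9.33 and differed by -0.025, a sign that turned with the values as deposited and after loess. KLHL42 read 9.38 and 9.09 (-0.325) and KLHL5 10.70 and 10.44 (-0.295).

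On the higher side of this class stood KLHL8, which read 8.13 and 8.62 and was 1.37-fold higher. KLHL18, an adaptor for Aurora A at entry into mitosis, read 9.50 and 9.78 (0.245). KLHL20, which acts on the kinase DAPK1 and on PML, read 11.22 and 11.46 (0.205) and was the brightest detected member of the class. The highest values after these were close to 0. KEAP1, the sensor that keeps the antioxidant factor NRF2 low, read 9.89 and 9.97 and differed by 0.045, as did KLHL28 and KLHL17.

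Other BTB proteins lack the kelch repeats. Of 34 measured genes 23 were detected, with a median of -0.055 and only RCBTB1 past 1.5-fold. The signs were 16 negative and 7 positive (59.4% of all detected genes were negative), but 12 and 11 with the values as deposited and 13 and 10 after loess. SPOPL, a close relative of SPOP that lowers the activity of its complexes, read 9.74 and 9.34 and was 1.35-fold lower. SPOP itself read 8.85 and 8.71 and differed by -0.175. KCTD9 read 9.11 and 8.82 (-0.325) and KCTD2 10.91 and 10.65 (-0.295). KCTD5, which acts on G protein beta-gamma subunits and is a close relative of KCTD2, was among the brightest members, at 11.88 on the miR-95 array, and differed by -0.155. KCTD17, a further relative, differed by -0.025. Of the 13 detected KCTD genes 10 were negative (76.9%, against 59.4% of all detected genes), with a median of -0.055. Among the 10, KCTD1, KCTD17 and KCTD18 read slightly higher on the miR-95 array as deposited.

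The median of the BTBD genes, 0.085, had the other sign from that of the KCTD genes. Of 7 detected members 3 were negative (42.9%, against 59.4% of all detected genes). BTBD10 read 8.60 and 9.13 and was 1.41-fold higher, the highest difference of any detected member. BTBD2 read 11.49 and 11.67 (0.145), and its relative BTBD1, with which it binds topoisomerase 1, read 10.67 and 10.80 (0.095). KCTD15, an inhibitor of AP-2 transcription factors, read 7.97 and 8.31 (0.305). The difference between the BTBD and KCTD medians was not tested. Both are smaller than the 0.126 spread between probe sets of single genes, which is no measure of the error of a median.

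Among F-box proteins, which SKP1 joins to CUL1, 41 of 57 measured genes were detected, with a median of -0.075 and 1 (FBXO48) past 1.5-fold. Of the 41, 28 were negative (68.3%, against 59.4% of all detected genes). In the FBXO class 25 of 33 were detected and 17 were negative (68.0%), or 14 (56.0%, against 48.0% of all) with the values as deposited. FBXO21 read 10.17 and 9.71 and was 1.41-fold lower. FBXO43 (EMI2), which restrains the anaphase-promoting complex in meiosis, read 7.55 and 7.19 (-0.395), and its somatic relative FBXO5 (EMI1) read 9.41 and 9.22 (-0.225). Between them stood FBXO45 at 9.94 and 9.72 (-0.255). Highest were FBXO27, a glycoprotein-binding F-box protein, at 10.12 and 10.40 (0.245), FBXO44 at 7.55 and 7.80 (0.215), and FBXO36 (0.135) and FBXO42 (0.125). FBXO32, the muscle atrophy ligase atrogin-1, differed by 0.055, and FBXO7, which is mutated in a parkinsonian syndrome, by -0.085. FBXO22 was the one member with several probe sets, which read 9.73 and 9.71 (difference -0.055) and 6.35 and 6.25 (-0.135). Their differences lay closer together than the median range of 0.12 within a gene.

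The FBXW class joins the F-box to WD40 repeats. Its 5 detected members of 9 measured lay between -0.125 (FBXW9) and 0.005 (FBXW8, the partner of CUL7), the narrowest range of any class with 5 or more detected genes. FBXW11, the relative of beta-TrCP that reads phosphorylated degrons, read 10.26 on both arrays, which is -0.035 after centring. FBXW2 differed by -0.105 and FBXW5 by -0.025, and the sign of FBXW5 and FBXW11 turned after loess. No probe set used here named FBXW7, the tumour suppressor that reads cyclin E and MYC.

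The FBXL class carries leucine-rich repeats, and 11 of its 15 measured genes were detected (median -0.095). Of the 11, 7 were negative (63.6%, against 59.4% of all detected genes), and 7 too with the values as deposited (48.0% of all). FBXL14, which acts on the SNAIL family, read 7.89 and 7.59 (-0.335), and FBXL7 read 8.12 and 7.87 (-0.285). FBXL18 read 7.89 and 7.82 (-0.105). FBXL4, which is needed for mitochondrial DNA maintenance, differed by -0.125 and FBXL6 by -0.105. FBXL20 was highest at 9.97 and 10.16 (0.155), followed by FBXL17, which clears faulty BTB dimers (0.135), FBXL16 (0.075) and FBXL12 (0.065). FBXL5, the iron sensor, stayed at 10.14 and 10.13. SKP2, which reads the cell-cycle inhibitor p27, was not named by a probe set used here. With detection at the 75th percentile 5 genes of the class were left and their median was 0.065, so the sign of the class rests on the dimmer genes.

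SOCS-box proteins work with CUL5, and the SOCS group also dampens cytokine signalling. Of 24 measured genes 12 were detected, with a median of -0.045 and 0 past 1.5-fold. After centring 8 of the 12 were negative (66.7%, against 59.4% of all detected genes). With the values as deposited 6 were negative and 5 positive (48.0% of all detected genes were negative), so the count of negative genes rests partly on the centring. SOCS6, which restrains receptor tyrosine kinases such as KIT, read 9.76 and 9.33 and was 1.38-fold lower, while its relative SOCS7 differed by -0.055. SOCS4, which acts on the EGF receptor, read 10.81 and 11.05 (0.205), and its relative SOCS5 read 9.41 and 9.34 (-0.105). SOCS3, the feedback inhibitor of signalling through gp130, read 8.29 and 8.49 (0.165). Of the ankyrin-repeat ASB genes 7 of 17 were detected. ASB9, which binds creatine kinase, was lowest at 8.56 and 8.35 (-0.245), ASB13 differed by -0.095, and ASB7 was highest at 9.58 and 9.86 (0.245), followed by ASB1 (0.175).

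DCAF proteins dock on DDB1 of CUL4 ligases. Of 18 measured genes 13 were detected, and none passed even 1.3-fold. Negative differences were seen in 11 (84.6%, against 59.4% of all detected genes), and in 9 (69.2%, against 48.0%) with the values as deposited. The class median was -0.115, below that of all detected genes by a margin that ran from -0.08 to -0.071 over the centrings tried. Centring takes the same or nearly the same amount off both medians, so this margin could hardly move and its stability is no check. DCAF6, known as a cofactor of nuclear receptors including the androgen receptor, read 9.67 and 9.42 (-0.285). DCAF16 read 11.21 and 11.06 (-0.185), DCAF12, which reads acidic protein ends, 10.49 and 10.35 (-0.175), and DCAF10 9.30 and 9.20 (-0.135). DCAF1, the receptor taken over by the HIV protein Vpr, differed by -0.115. The positive members were DCAF4 at 8.69 and 8.88 (0.155) and DCAF7, the brightest detected member of the whole set, at 12.15 and 12.29 (0.105). DCAF15, the target of the aryl sulfonamide degraders, differed by -0.005 and DCAF8 by -0.025, and both turned positive with the values as deposited.

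The KLHDC class has kelch repeats without a BTB domain, and KLHDC2, KLHDC3 and KLHDC10 are known to read protein carboxy-terminal ends for CUL2. It was the one protein-coding class with a positive median after median centring, 0.025 (after loess the FBXW class was at 0.0079 too). Of 10 measured genes 7 were detected, 4 positive and 3 negative (42.9%, against 59.4% of all detected genes). With the values as deposited 5 were positive and 2 negative (28.6%, against 48.0%). The signs were 5 and 2 after loess and after quantile normalization too. KLHDC1 read 8.11 and 8.42 (0.275), and its relative KLHDC2 read 11.33 and 11.49 (0.125). KLHDC8B read 9.86 and 10.03 (0.135) and KLHDC4 8.11 and 8.17 (0.025). KLHDC10 differed by -0.005, positive with the values as deposited, after loess and after quantile normalization. KLHDC9 differed by -0.065 and KLHDC3 by -0.115. None of these values passed 1.3-fold.

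**Figure D3:**
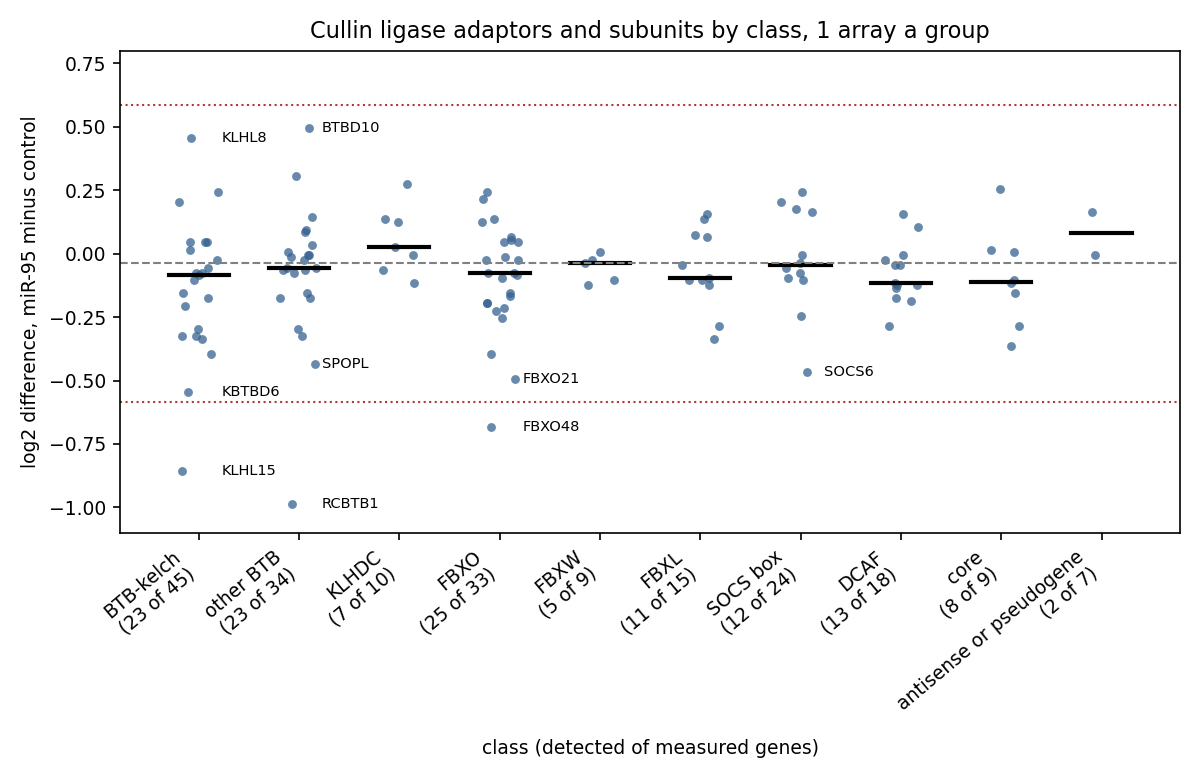
Log2 difference (miR-95 minus control, centred) of each detected member by class, with a short black bar for the class median, a dashed line at -0.035 for the median of all detected genes and dotted lines at 1.5-fold; points are spread sideways only for legibility. Class medians run from -0.115 (DCAF) to 0.08 (antisense or pseudogene), while single genes range from RCBTB1 at -0.985 to BTBD10 at 0.495.

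All 8 measured cullins were detected, and none differed by 1.5-fold. CUL5, the scaffold of the SOCS-box class, was lowest at 9.64 and 9.31 (-0.365). CUL4B read 10.02 and 9.77 (-0.285), and its paralog CUL4A 9.81 and 9.74 (-0.105). CUL2 was the brightest cullin at 11.91 and 11.79 (-0.155), and CUL1 read 11.23 and 11.15 (-0.115). CUL3, the scaffold of BTB adaptors, read 10.50 and 10.55 and differed by 0.015, less than the spread between probe sets. CUL7 was highest at 8.95 and 9.24 (0.255) and the related CUL9 read 8.54 and 8.58 (0.005).

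SKP1 read 6.42 and 6.14, below the limit on both arrays, and its pseudogene SKP1P2 read 6.06 and 5.81. Since signal can be shared between a gene and a near-identical pseudogene, these readings are uncertain. No probe set used here named RBX1. The other RING partner, RNF7 (RBX2), lies outside the symbol rule and was looked up afterwards; it read 9.50 and 9.47 (-0.065).

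Pairs of close relatives were set side by side after their values had been seen, so they say nothing of relatives in general. Apart from RCBTB1 and RCBTB2, the widest gap was between SOCS6 and SOCS7 (-0.41), followed by BTBD6 and BTBD3 (-0.33), where BTBD3 was below the limit. The gaps of KLHL13 against KLHL9 and of SOCS4 against SOCS5 were -0.31 and 0.31. Gaps were smaller for SPOPL against SPOP (-0.26), CUL4B against CUL4A (-0.18) and KCTD10 against KCTD13 (-0.12), and smallest for BTBD1 against BTBD2 (-0.05).

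**Figure D4:**
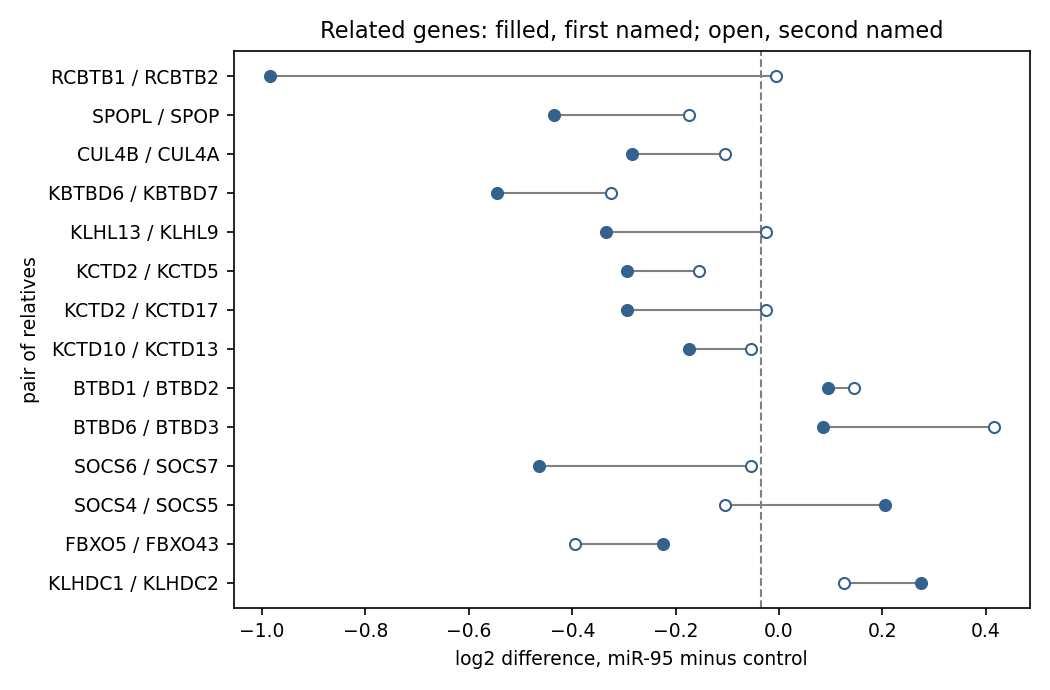
Log2 difference (miR-95 minus control, centred) of 14 pairs of related genes, with the first-named gene filled, the second open and a line between them; the dashed line is the median of all detected genes, -0.035. RCBTB1 and RCBTB2 lie farthest apart (-0.985 and -0.005), and SOCS4 and SOCS5 lie on opposite sides of 0.

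The 11 members past 1.3-fold have 22 nearest measured neighbours by RefSeq gene order, of which 9 were detected and the other 13 were below the limit. Of the 9, RTTN beside SOCS6 (-0.425) passed 1.3-fold in the direction of its member and the clock gene BMAL1 beside BTBD10 (-0.655) passed it in the other direction, where 3.26% of all detected genes were lower and 1.88% higher at that limit. KBTBD6 and KBTBD7 are each other's nearest measured neighbour on one side and were both lower, while WBP4 on the other side of KBTBD6 differed by -0.115. Around RCBTB1 the nearest measured genes CAB39L and ARL11 were below the limit and differed by -0.145 and -0.105, and the next detected ones, CDADC1 and EBPL, by -0.045 and -0.025. Around KLHL15 the nearest detected gene, APOO, differed by 0.195, and the genes below the limit were CXorf58 (0.125), SCARNA23 (0.005) and VENTXP1 (6.79 and 6.52, -0.305).

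Of the 204 members, 75 lay below the detection limit on both arrays. They read between 3.04 and 7.37 on the control array. Negative differences were seen in 48 of them (64.0%) and in 54.2% of all genes below the limit. KLHL3, the adaptor that controls WNK kinases in the kidney, read 6.90 and 6.18 (-0.755) and was the only one past 1.5-fold, a limit that 0.988% of such genes passed downwards and 0.457% upwards. The skeletal muscle adaptors KLHL40, KLHL41 and FBXO40 were among them, at 6.51, 4.58 and 5.32 on the control array. BTBD3 was highest, at 6.86 and 7.31 (0.415). A further 6 detected members (ASB16, FBXO43, KBTBD7, KLHDC9, KLHL13 and KLHL29) reached the limit only on the control array, so the filter favoured a lower value on the other array for these.

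Among the 7 antisense and pseudogene symbols 2 were detected, SOCS2-AS1 at 7.48 and 7.68 (0.165) and ASB16-AS1 at 9.64 and 9.67 (-0.005, positive with every other centring). Their sense genes SOCS2 and ASB16 differed by -0.055 and -0.075. The other 5 (FBXL19-AS1, SKP1P2, DCAF13P3, FBXW4P1 and ASB9P1) were below the limit.

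The machinery around the cullins was described from lists fixed by name. In the NEDD8 activation list 3 of 12 genes were measured, all detected and none past 1.3-fold. UBA3 and NAE1, the subunits of the NEDD8-activating enzyme, read 10.86 and 10.65 (-0.245) and 11.83 and 11.67 (-0.195), and the ligase ARIH2 differed by -0.04. In the list of NEDD8 removal, adaptor exchange and inhibition, 12 of 13 measured genes were detected, with a median of -0.025, less than the centring shift of 0.035, and 0 past 1.5-fold. COPS4, a COP9 signalosome subunit, read 9.73 and 10.14 (0.375) and CAND2, an exchange factor, 7.46 and 7.83 (0.335). The other signalosome subunits lay between -0.145 (COPS7B) and 0.075 (COPS6), and CAND1 differed by -0.095. Of the linkers and partner conjugating enzymes 4 of 12 were measured, from -0.125 (DDA1) to 0.095 (UBE2R2), with CDC34 at 0.005.

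Adaptors that carry other symbols formed a further list. Of 46 listed names 35 were measured and 27 detected, with a median of -0.055 and 0 past 1.5-fold. Of the 27, 17 were negative (63.0%, against 59.4% of all detected genes). WSB1, a SOCS-box protein, read 11.37 and 10.91 (-0.495). CCNF (cyclin F), the founding F-box protein, read 8.84 and 8.42 (-0.455), and BTRC (beta-TrCP1), the paralog of FBXW11, 9.83 and 9.50 (-0.365). DTL, which removes the replication licensing factor CDT1, read 12.01 and 11.81. On the higher side SPSB1, a SOCS-box protein that acts on inducible nitric oxide synthase, read 7.69 and 8.26 (0.535) and DET1 8.59 and 8.93 (0.305).

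**Figure D5:**
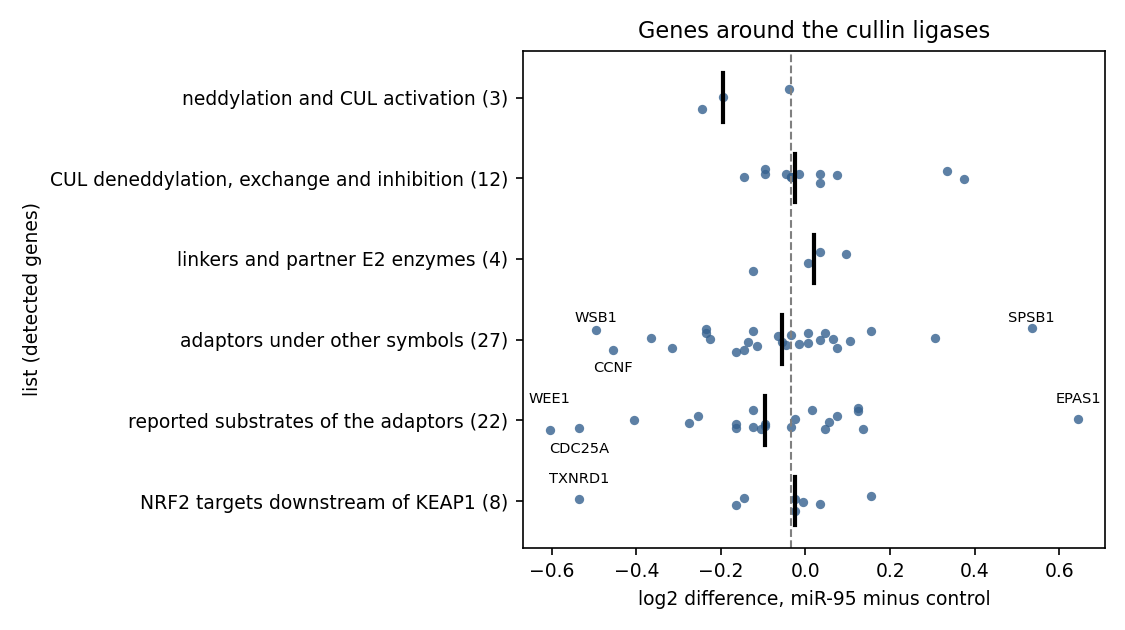
Log2 difference (miR-95 minus control, centred) of each detected gene in 6 lists of cullin-related genes, with a short black bar for the list median and a dashed line at -0.035 for the median of all detected genes; points are spread vertically only for legibility. Most points lie within 0.3 of 0, and the farthest are WEE1 at -0.605 and EPAS1 at 0.645 in the list of reported substrates.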

How the data were processed

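The authors deposited log2 expression values per probe set, 1 array for each of 2 samples, made with Affymetrix Expression Console 1.2 per the submitters' processing notes. Summarisation of probe sets, background correction, between-array scaling and genome build were not given in the sources used here. A log2 scale was read from the values. The arrays had nearly the same distribution (sorted values within 0.04 of each other inside the outer percentiles), so a shift common to all genes could not be seen. Platform annotation named 14088 of 23641 probe sets (59.6%), each with 1 symbol, and the other 9553 were not used. All 14088 matched the RefSeq table of GRCh38.p14 by Entrez identifier, which served for names and gene order. Probe sets of a gene were averaged, and each array was centred on its median over genes, which lowers miR-95 values by 0.035 (Python 3.11.15, pandas 2.3.3). Calls used folds of 1.5, 1.3 and 1.2, with no test. The steps were tested on simulated data. Members, classes and lists were chosen with earlier results of these data known. Genes named were all cullins, a fixed set of well-known adaptors, members past 1.5-fold, the 4 highest and 4 lowest detected members of each class (all where at most 8 were detected), and, of each list, members past 1.5-fold and some of its 3 highest and 3 lowest; others, among them the pairs of relatives, KLHL17, KLHL28, FBXO5, FBXO7, FBXO32, FBXL5, DCAF1, DTL, RNF7, KLHL3 and the remaining genes below the limit, were named after their values were seen. The planned ranking of relatives by protein sequence was not done, since protein sequences were not used here.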

Additional observations from a re-analysis of the deposited data

How the results depend on the processing

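No paired analysis was possible because each group holds 1 array, and for the same reason no replicate could be left out. RCBTB1, KLHL15 and FBXO48 ranged from -0.985 to -0.898, -0.855 to -0.807 and -0.685 to -0.627. These ranges cover the main setting and the 5 alternatives that recompute single values, not those that change detection. The count of members at least 1.5-fold lower was 3 or 4 in 8 of 9 alternatives, where 0.621% to 0.923% of all genes kept were that much lower. With detection at the 75th percentile 66 members were left and 1 was that much lower (0.773% of all genes kept). This was KLHL15, the brightest of the 3, while RCBTB1 and FBXO48 were not kept. Of those 66, 4 were at least 1.3-fold lower (3.01% of all genes kept), 0 higher (1.93%), 10 at least 1.2-fold lower (8.45%) and 0 higher (4.94%). With no filter 14 of 204 were at least 1.3-fold lower (3.86% of all genes) and, at 1.2-fold, 38 lower (9.88%) and 7 higher (6.57%). Detection at the 25th percentile gave 31 of 174 lower at 1.2-fold (8.84%). The count higher at 1.2-fold of 129 was 8 with the values as deposited (7.09% of all genes), 8 after loess (6.96%) and 7 after quantile normalization (6.19%). Of 90 recomputed class medians 88 moved by less than 0.126. The others were the FBXL class with detection at the 75th percentile (0.065) and the antisense or pseudogene symbols with no filter on dim genes (-0.095). The figure of 0.126 is a spread of single genes. Class medians lay between -0.115 and 0.08, so moves of that size were hardly possible and this is a weak check. Of 75 named genes 8 changed sign under some centring, and each of these lay within 0.035 of 0. The loess span was 0.4 and the offset 32. The 75 undetected members read below the median over genes on both arrays. No background level was used here, so how near they lie to it was not tested.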

Other observations

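Messages of proteins that these ligases are reported to degrade went both ways. RNA levels do not read out the activity of a ligase, so these are values beside the adaptors. Of 38 listed substrates 23 were measured and 22 detected, with a median of -0.095 (all detected genes -0.035). Of these 22, 14 were negative (63.6%, against 59.4% of all detected genes), 1 was at least 1.5-fold lower (0.861% of all) and 1 at least 1.5-fold higher (0.395%). The mitotic inhibitor kinase WEE1 was lower at 9.80 and 9.23 (control, then miR-95; difference -0.605), as was the phosphatase CDC25A at 9.80 and 9.30 (-0.535), which passed 1.3-fold only. Both are read by beta-TrCP. CCNE1, cyclin E1, read 9.32 and 8.95 (-0.405). EPAS1, the hypoxia factor read by VHL, was higher at 8.20 and 8.88 (0.645), while MYC differed by 0.135 and JUN by -0.095.

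Of 22 listed NRF2 targets, which KEAP1 holds down through NRF2, 8 were measured and all were detected, with a median of -0.025, less than the centring shift of 0.035. After centring 6 of them were negative (59.4% of all detected genes were). Among the 6, TALDO1, TXN and PGD read slightly higher on the miR-95 array as deposited, so this count rests on the centring. TXNRD1, thioredoxin reductase, read 9.70 and 9.20 (-0.535) and HMOX1, heme oxygenase, 8.59 and 8.46 (-0.165), while OSGIN1 read 7.47 and 7.66 (0.155). NFE2L2, which encodes NRF2, read 8.82 and 8.69 (-0.165). KEAP1 differed by 0.045, so it and most of these targets lay close to the median of all genes.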
